A study of Homo sapiens with 27 samples.

Results

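SW480 cells made resistant to fluorouracil (5-FU res) were compared with SW480 cells made resistant to oxaliplatin (OX res), with no untreated library in the test. The members are the 6 libraries titled for these groups, 3 of each, among 27 in the series. SW480 is an established human colorectal cancer (CRC) line, derived from a primary colon adenocarcinoma and known for an aneuploid, rearranged karyotype. The series also holds untreated SW480 cells (WT) and the same 3 states of HCT116 and DLD-1, further CRC lines. Per the labels, resistance was raised over about 6 months with 5 to 70 µM 5-FU or 5 to 35 µM OX, and the study's methods describe a stepwise rise of the dose over many passages. All groups grew in low-glucose DMEM with fetal bovine serum. A single adapted population per drug is described, and no source says whether its 3 libraries came from separate cultures. The p-values therefore rest on variation between libraries that could be technical alone, and the selection by the drug cannot be told apart from any other history of each population.

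The drugs act differently. Fluorouracil is converted to nucleotides that block thymidylate synthase and enter RNA and DNA, and dihydropyrimidine dehydrogenase (DPYD) degrades it. Oxaliplatin forms platinum adducts on DNA and is bound in the cell by thiols, among them glutathione and metallothioneins, small cysteine-rich proteins that hold zinc and copper.

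Levels are TPM, the deposited FPKM rescaled so that every library has the same sum. A gene was tested where 3 or more of the 6 libraries reached 1 TPM, and its log2 fold change is 5-FU res minus OX res on log2(TPM + 1), which understates changes of low genes. A gene that reached 1 TPM in 1 group alone thus entered only through the group where it is higher. A gene counts as higher or lower where its adjusted p in limma lies under 0.05, and as called where the log2 fold change also lies beyond 1. Libraries of a group correlated at 0.991 to 0.993 across genes and libraries of different groups at 0.972 to 0.975. The 5-FU res libraries correlated with untreated SW480 at 0.965 to 0.966 and the OX res libraries at 0.975, against 0.899 to 0.913 with the untreated cells of the other lines. Depth was not given, and the steps of low values put the 5-FU res libraries at an estimated 1.22 to 1.25 times OX res replicate 1. By the same estimate OX res replicates 2 and 3 lay at 1.02 and 1.23 times, so only replicate 3 was as deep as the 5-FU res libraries. Genes listed above 0 numbered 18183 to 18228 in 5-FU res and 17377 to 17632 in OX res. The epithelial keratins KRT8 and KRT18 lay at 3644 TPM or more in all 6 libraries and EPCAM, an epithelial adhesion protein, at 100.3 or more. The epithelial cadherin CDH1 lay far lower, at 2.47 to 3.66 TPM, and the colon marker ASCL2 at 27.1 to 32.7 TPM. The colon markers CDX1, KRT20, CDH17 and GPA33 stayed under 1 TPM in all 6. Of 9 fibroblast markers, 7 stayed under 1 TPM throughout. Of 7 leukocyte markers, PTPRC did not pass 0.0342 TPM, while CD68, CD14 and LYZ, which other cells can express, were tested, with 2 of them higher (1 without 5-FU res replicate 1). The list summed to 28.9 to 32.5 TPM in 5-FU res and 24.4 to 28.6 TPM in OX res. Of 6 endothelial markers, 5 stayed under 1 TPM throughout. The remaining endothelial marker, TIE1, was higher, at 5.17 to 6.46 TPM in 5-FU res and 2.70 to 3.23 TPM in OX res.

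The groups differed widely. In 5-FU res, KISS1, the keratin KRT7 and the growth factor BMP4 were among the genes most raised over OX res, and mesenchymal and interferon genes were mostly higher. SYK, CRABP2, EPAS1 and the metallothioneins were lower, as were most genes of the glutathione and ATF4 programmes. Many further differences ran along whole stretches of chromosomes. Of 13916 genes tested, 910 were called higher in 5-FU res and 648 lower, which is 6.54% and 4.66%. Without the fold threshold, 5184 genes (37.3%) were higher and 4356 (31.3%) lower, and 72.2% of all genes had groups that did not overlap. Each list count below uses this rule without the fold threshold and is to be read against these shares and against the median log2 fold change over all genes, 0.044. A median-of-ratios scaling moved that median to 0.0028, gave 835 higher and 706 lower calls, and held 835 and 648 of those made with TPM.

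The fold changes were arranged along the chromosomes. Long stretches of neighbouring genes were shifted together, and in each of them the 3 libraries of a group lay together, apart from those of the other. A stretch was defined, after the values had been seen, as 10 or more consecutive tested genes whose running median over 21 genes lay beyond 0.5 from the median of all genes. By that rule 23 stretches on 14 chromosomes held 1235 genes, 9.21% of the 13408 tested genes with a position, 13 stretches higher and 10 lower in 5-FU res. Of the genes called lower, 36.7% lay inside lower stretches, which hold 5.83% of tested genes. Of those called higher, 16.2% lay inside higher stretches, which hold 3.39%. The same fold changes define the stretches and the calls, so these shares are a description only. DNA was not measured in this series.

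**Figure D1:**
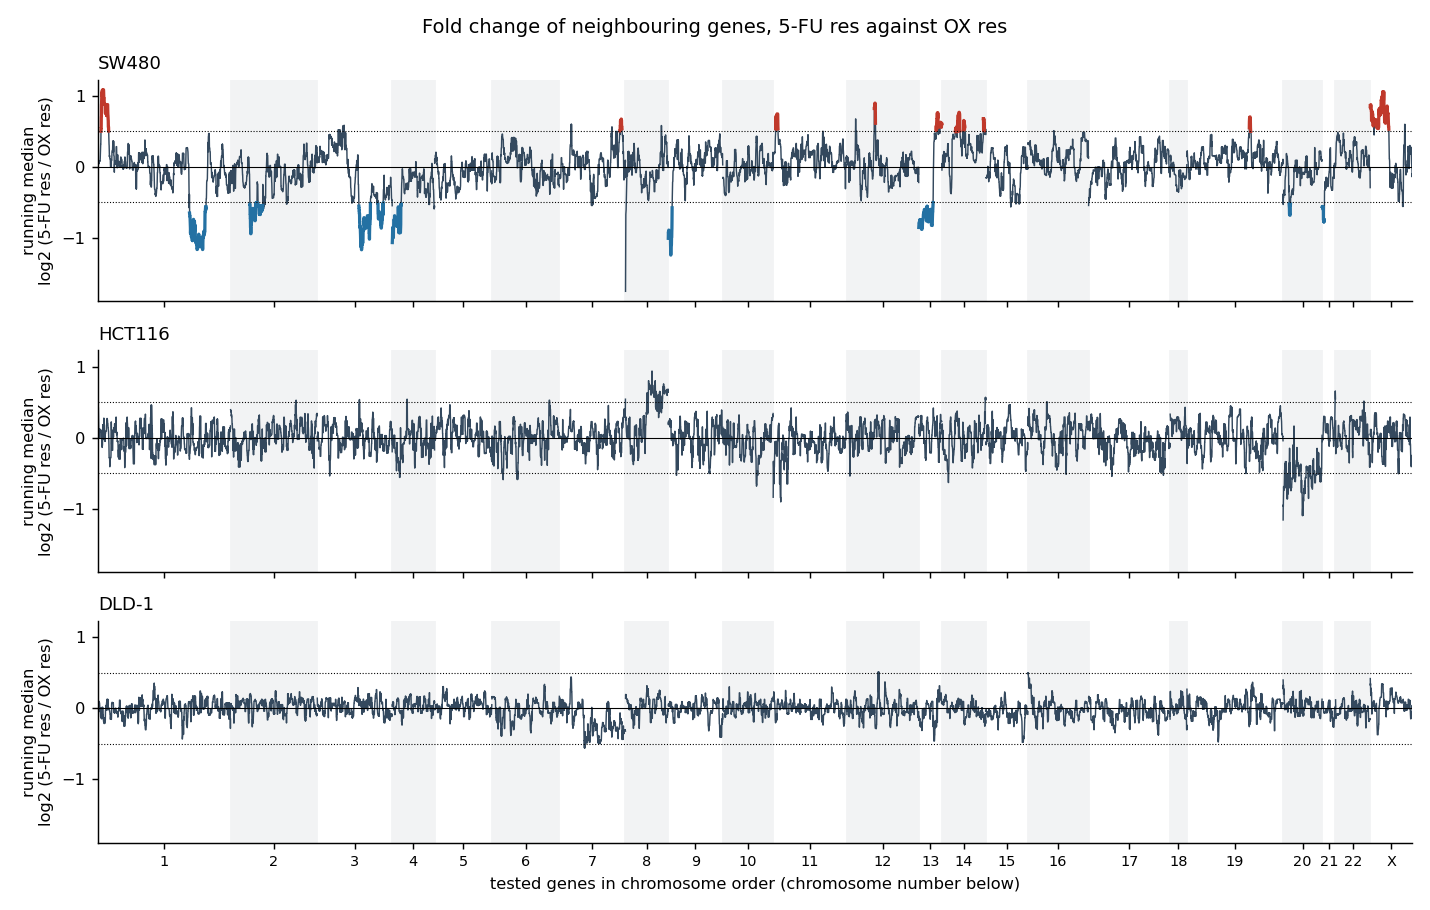
Running median over 21 neighbouring tested genes of the log2 fold change, 5-FU res against OX res, less the median of all genes, in chromosome order for SW480 (top), HCT116 (middle) and DLD-1 (bottom); dotted lines mark 0.5 on either side of 0. In SW480 the 10 lower stretches (blue) and 13 higher stretches (red) are drawn thick, and none of them has a shift beyond 0.5 in the same direction in the other lines.

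The largest lower stretch lay on the long arm of chromosome 1, from LAMTOR2 to C1orf53 (chr1:156024573-197876497, hg19), with 169 tested genes. Its median level relative to the OX res mean, less the same over all genes, was -0.97, -1.004 and -0.99 in the 5-FU res libraries, and 150 of its genes were lower against 2 higher. It held genes of unrelated function, among them the complex II subunit SDHC (36.2 against 76.5 TPM), the kinetochore protein NUF2 (15.2 against 33.8 TPM) and the stress sensor ATF6 (9.48 against 19.5 TPM). Chromosome 3 carried a lower stretch from TAGLN3 to CEP63 (chr3:111717586-134306631) with libraries at -0.87, -0.91 and -0.85 over 119 genes and a second from MFSD1 to LINC00888 (chr3:158449987-183173805) at -0.72, -0.68 and -0.80. The tip of chromosome 4 from ZNF595 to LCORL (chr4:53180-18023499) was lower at -0.88, -0.80 and -0.82, and chromosome 9 from WASH1 to KLHL9 (chr9:14475-21335403) at -1.04, -1.09 and -1.02. On chromosome 13 the part nearer the centromere, from MPHOSPH8 to LINC00458 (chr13:20207799-54844532), was lower at -0.71, -0.68 and -0.76, while 2 stretches further along, from OXGR1 to BIVM-ERCC5 and from ATP11A to CHAMP1, were higher at 0.68, 0.67 and 0.73 and at 0.57, 0.61 and 0.56. The 2 lower stretches of chromosome 2 and those of chromosomes 20 and 21 had medians from -0.72 to -0.52.

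Among the higher stretches, that near the end of the short arm of chromosome 1 ran from SSU72 to MASP2 (chr1:1477053-11107296). It stood at 0.92, 0.84 and 0.87 in the 5-FU res libraries, with 71 of 79 genes higher. It contained the longest unbroken run of called genes in the comparison, 8 neighbours from RER1 to MEGF6 with log2 fold changes from 1.05 to 1.597. The X chromosome was higher from GYG2 to RAI2 and along a longer stretch that ends at IL2RG, the second with 150 genes at 0.75, 0.73 and 0.74. The remaining higher stretches were shorter, 11 to 28 genes, on chromosomes 7, 11, 12, 13, 14 and 19, and those on 12 and 19 cover the keratin and the pregnancy-specific glycoprotein (PSG) clusters, where related neighbours can share reads.

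Set beside untreated SW480, which had no part in the test, the stretches differed in which group stood apart. In the 1q stretch the WT libraries lay at -0.21, -0.18 and -0.20 on the same scale, nearer to OX res than to 5-FU res. On chromosomes 3 (TAGLN3 to CEP63), 4 and 13 (MPHOSPH8 to LINC00458) they lay at 0.42, 0.34 and 0.40, at -0.081, -0.015 and -0.091 and at 0.13, -0.071 and 0.088, close to or above OX res. For the chromosome 1 stretch from SSU72 to MASP2 and for the X stretch that ends at IL2RG they lay at 0.79, 0.81 and 0.74 and at 0.54, 0.51 and 0.57, nearer to 5-FU res.

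**Figure D2:**
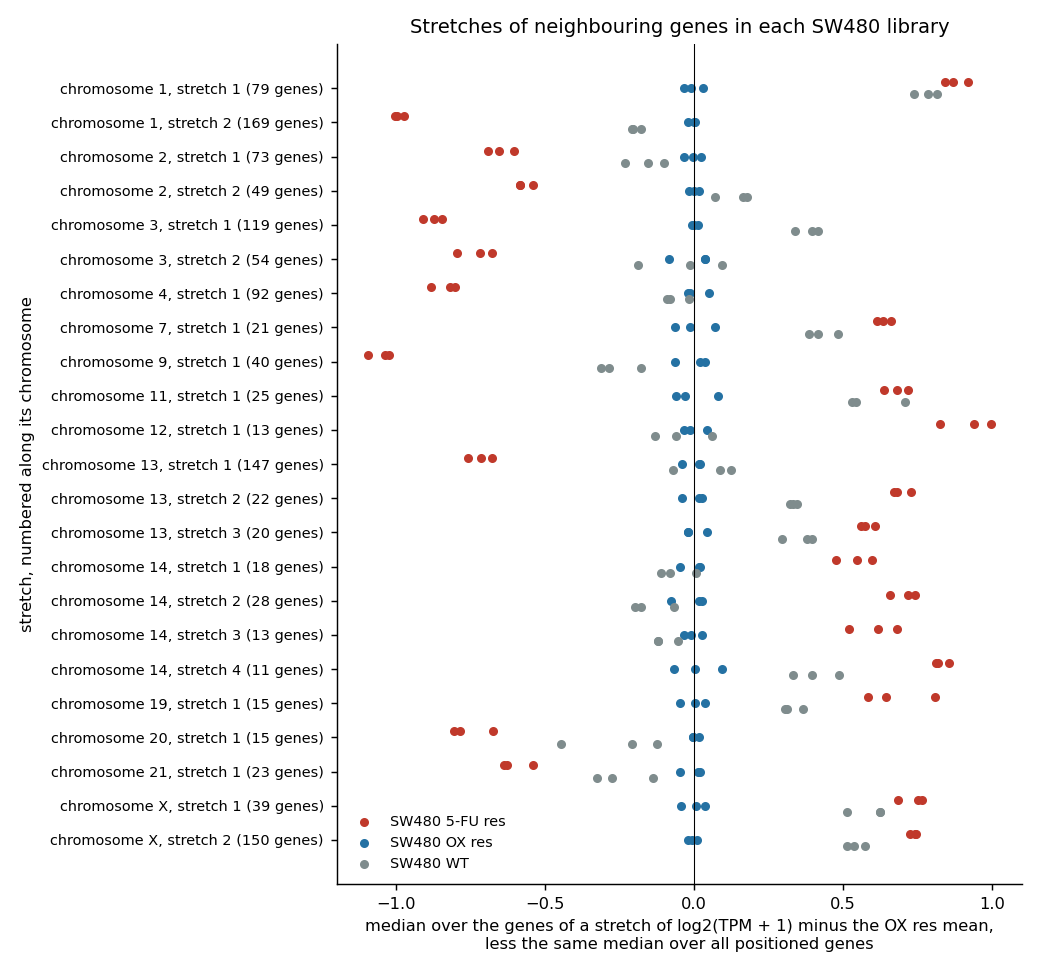
Each row is a stretch of neighbouring genes, numbered along its chromosome, and each point a SW480 library; the x axis gives the median over the stretch of log2(TPM + 1) minus the OX res mean, less the same median over all positioned genes. The 3 libraries of each resistant group lie together and apart from the other group in every row, while WT (grey) lies near OX res in some rows and near 5-FU res in others. The rows were chosen by the difference between the resistant groups in these same libraries, so their separation is a description only.

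At the end of the short arm of chromosome 8, a run of 4 neighbouring tested genes was at or near 0 in 5-FU res but in neither other SW480 state. These genes were singled out after their values were seen. FBXO25, a ubiquitin ligase subunit, had 0, 0 and 0.0689 TPM in 5-FU res and 6.25, 5.48 and 4.65 TPM in OX res. ARHGEF10, a guanine nucleotide exchange factor, had 0.0293, 0.0307 and 0.0292 TPM in 5-FU res and 6.02, 5.33 and 5.82 TPM in OX res. ERICH1 was listed at 0 in all 5-FU res libraries and at 4.08, 3.97 and 4.86 TPM in OX res. These 3 genes were separate between groups in every library, as was CLN8, an endoplasmic reticulum protein, with 0, 0.0234 and 0 TPM in 5-FU res and 1.92, 2.35 and 2.67 TPM in OX res. Outside the run at the tip, the pseudogene RPL23AP53 still had 1.05, 0.902 and 0.635 TPM in 5-FU res and 2.01, 1.83 and 1.63 TPM in OX res. The next tested gene inwards, MCPH1, a chromosome condensation regulator, had 8.68, 8.47 and 8.59 TPM in 5-FU res and 8.402, 8.09 and 8.45 TPM in OX res, values that lay close together and did not pass (log2 fold change 0.04 ± 0.073 SE, limma adjusted p = 0.64). Further in, SGK223, a pseudokinase scaffold, had 0.0343, 0.03596 and 0.102 TPM in 5-FU res and 72.7, 86.03 and 76.8 TPM in OX res (log2 fold change -6.23 ± 0.089 SE, limma adjusted p = 3.5e-10). That was the largest decrease of the comparison. In untreated SW480 the means of FBXO25, ARHGEF10 and SGK223 were 7.35, 6.02 and 40.6 TPM. On chromosome 4, RNF212, a meiotic crossover factor, was likewise listed at 0 in 5-FU res and at 6.28, 5.37 and 4.35 TPM in OX res.

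Fitted with the running median of 41 neighbours removed, an alternative chosen after seeing the data, 582 of the 874 positioned genes called higher and 348 of the 624 called lower were still called. For each gene named below with a neighbour value, that value is the median log2 fold change of the 10 tested genes on either side. The groups did not overlap in any gene whose TPM are given library by library, which also held for 72.2% of all genes tested. Many of the genes given were chosen for a large change or for separate groups, so their separation is a description only. These are bulk libraries, in which fewer cells expressing a gene and less RNA per cell cannot be told apart.

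The largest increases by log2 fold change were those of KISS1, HSD17B2, ALPK2, GDA and CXCL14. KISS1, the precursor of kisspeptin, which restrains metastasis in several cancers (chr1:204159469-204165619), had 151, 147 and 160.3 TPM in 5-FU res and 1.76, 1.35 and 0.863 TPM in OX res (log2 fold change 6.06 ± 0.13 SE, limma adjusted p = 2.4e-09). No 5-FU res library came near an OX res library, and its neighbours had a median of 0.18. HSD17B2, which oxidises oestradiol and testosterone, had 55.8, 51.9 and 55.2 TPM in 5-FU res and 1.07, 0.883 and 0.499 TPM in OX res (log2 fold change 4.94 ± 0.12 SE, limma adjusted p = 5.1e-09). GDA, guanine deaminase, had 129.6, 139 and 124 TPM in 5-FU res and 3.71, 3.52 and 4.76 TPM in OX res, again with wide separation (log2 fold change 4.73 ± 0.094 SE, limma adjusted p = 1.9e-09). The chemokine CXCL14 lay at 37.5, 36.98 and 34.8 TPM in 5-FU res and at 0.215, 0.31000 and 1.05 TPM in OX res (log2 fold change 4.66 ± 0.18 SE, limma adjusted p = 8.6e-08). The kinase ALPK2 was nearly confined to 5-FU res among these 6 libraries, at 29.1 ± 0.983 against 0.04004 ± 0.02304 TPM (SD, n = 3), as were TMEM52B (23.3 against 0.0507 TPM), CDH11, a mesenchymal cadherin (31.96 against 0.673 TPM), and AMOTL1, a junction protein that binds YAP (23.2 against 0.2504 TPM). PSG1, a placental glycoprotein, reached 477 ± 28.3 against 18.4 ± 1.33 TPM, with the caution on its cluster given above. BMP4, a secreted growth factor of the TGF-β family, had 1523, 1486 and 1535 TPM in 5-FU res and 128, 134 and 129 TPM in OX res (log2 fold change 3.53 ± 0.034 SE, limma adjusted p = 4.8e-11) with a neighbour median of 0.71. The largest gain in TPM was that of TMSB4X, an actin-sequestering peptide on X, at 6504 ± 128 against 1487 ± 52.5 TPM, followed by BMP4, the crosslinking enzyme TGM2 (2256 against 1103 TPM), CRIP1 (982 against 389 TPM) and IGFBP6, a binder of insulin-like growth factors (769 against 272 TPM).

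The decreases were led, after SGK223, by REG3A, an antimicrobial lectin of the gut, with 0, 0.263 and 0 TPM in 5-FU res and 40.7, 42.3 and 44.4 TPM in OX res (log2 fold change -5.33 ± 0.11 SE, limma adjusted p = 2.5e-09). WT cells listed REG3A at 0, so it was OX res that stood apart. DEFA5, a defensin of Paneth cells, followed the same pattern, with 0.5303, 0.555 and 0 TPM in 5-FU res and 14.5, 11.4 and 10.2 TPM in OX res and a WT mean of 0.382. SYK, a tyrosine kinase of immune and epithelial cells (chr9:93564069-93660831), had 13.3, 14.6 and 13.8 TPM in 5-FU res and 273, 264 and 278 TPM in OX res (log2 fold change -4.197 ± 0.049 SE, limma adjusted p = 1.4e-10) and neighbours at 0.031. CRABP2, which carries retinoic acid to its nuclear receptors (chr1:156669398-156675608), had 95.2, 95.1 and 95.6 TPM in 5-FU res and 1123, 1172 and 1102 TPM in OX res (log2 fold change -3.56 ± 0.035 SE, limma adjusted p = 4.8e-11). It lies in the lower stretch of 1q with neighbours at -0.92, as does the repressor ETV3 (20.04 against 225 TPM, neighbours -0.96). EPAS1, the hypoxia-inducible factor HIF-2α, had 49.7, 53.3 and 49.03 TPM in 5-FU res and 424, 445 and 454 TPM in OX res (log2 fold change -3.098 ± 0.046 SE, limma adjusted p = 3.5e-10). CPLX2, a regulator of vesicle release, KCNJ5, a potassium channel, and SMIM22 were lower at 5.09 against 86.6 TPM, 7.96 against 97.3 TPM and 5.68 against 70.1 TPM. In TPM the largest loss was that of PKM, pyruvate kinase, at 1357 ± 7.14 against 3994 ± 60.7 TPM, followed by the ribosomal protein RPS6 (1004 against 2738 TPM, neighbours -0.90), the metallothionein MT2A, RPS27A (1145 against 2446 TPM, neighbours -0.75) and CRABP2. The small nucleolar RNAs SNORA21, listed at 0 in 5-FU res with a mean of 29.8 TPM in OX res, and SNORD15B (77.7 against 10.6 TPM) also met the naming rule, but a poly(A) library measures such RNAs poorly.

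**Figure D3:**
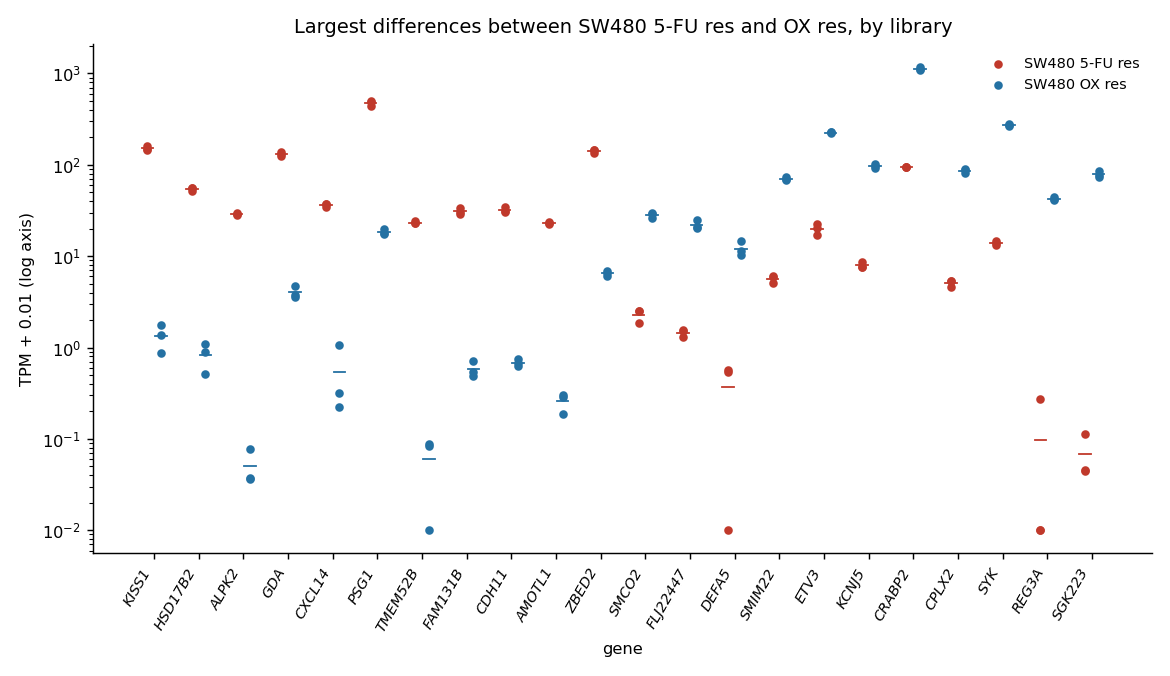
TPM + 0.01 on a log axis in each library for the genes with the largest log2 fold changes in either direction, small nucleolar RNAs left out; points are libraries and short lines group means. The genes run from KISS1 (left) to SGK223 (right). Only called genes whose groups do not overlap could be drawn, so their separation was set by that choice.

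Genes that handle 5-FU went both ways, with a lean to higher levels in 5-FU res. The list had 21 members higher and 10 lower, with 36 of 40 tested, and a median log2 fold change of 0.20. DPYD, which degrades the drug, had 5.15, 6.13 and 4.99 TPM in 5-FU res and 1.28, 1.07 and 1.67 TPM in OX res (log2 fold change 1.46 ± 0.13 SE, limma adjusted p = 1.2e-05), and untreated SW480 listed it at 0. The target TYMS, thymidylate synthase, was 212 against 169.97 TPM (log2 fold change 0.32 ± 0.036 SE, limma adjusted p = 5.3e-05). The kinases that activate uridine analogues went apart. UCK2 was lower (12.4 against 36.4 TPM, log2 fold change -1.48 ± 0.057 SE, limma adjusted p = 8.8e-08, neighbours -1.08) and UCK1 higher (64.98 against 32.2 TPM, log2 fold change 0.99). UMPS, which turns 5-FU into its ribonucleotide, was lower (10.8 against 20.2 TPM, log2 fold change -0.85, neighbours -0.64 on chromosome 3). The thymidine kinases TK1 and TK2 were higher (288 against 201 TPM and 22.1 against 9.16 TPM), as was the nucleoside transporter SLC29A1 (103 against 62.1 TPM), while the folate enzymes SHMT2 and MTHFD2 were lower (176 against 312 TPM and 82.1 against 135 TPM). DUT, RRM2B, TDG, SLC19A1 and SLC29A2 did not pass, with log2 fold changes between -0.024 and 0.059.

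Platinum handling genes lay near the shares of all genes. The list had 15 members higher and 11 lower, with 36 of 41 tested, and a median of 0.051. The copper importer SLC31A1, which also carries platinum drugs, was 34.3 against 30.9 TPM and did not pass (log2 fold change 0.15 ± 0.069 SE, limma adjusted p = 0.087). Its relative SLC31A2 was higher (26.5 against 14.3 TPM, log2 fold change 0.85) and the copper exporter ATP7B lower (4.39 against 8.28 TPM, -0.78, neighbours -0.79). The glutathione synthesis enzymes GSS, GCLM and GCLC were lower at 89.3 against 201 TPM, 17.6 against 36.2 TPM and 18.6 against 29.99 TPM, while the glutathione transferase GSTP1 was higher (761 against 441 TPM). Among repair genes, ERCC5 (0.60, neighbours 0.60) and FANCA (0.50) were higher and BRCA2 (-0.60, neighbours -0.53), RAD23B (-0.57) and ERCC4 (-0.40) lower on the log2 scale. ERCC1, a nuclease subunit that removes platinum adducts, differed little (128 against 139.9 TPM, log2 fold change -0.13 ± 0.05 SE, limma adjusted p = 0.047), a call that many other settings did not keep.

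The metallothionein list was one-sided. All 8 tested members were lower in 5-FU res, including the metal-sensing factor MTF1 and the zinc exporter SLC30A1 that the list holds beside the metallothioneins, with a median of -0.97. MT2A had 919, 963 and 935 TPM in 5-FU res and 2651, 2808 and 2558 TPM in OX res (log2 fold change -1.51 ± 0.041 SE, limma adjusted p = 1.2e-08). MT1E had 200.2, 203 and 201 TPM in 5-FU res and 664, 655 and 653 TPM in OX res (log2 fold change -1.703 ± 0.031 SE, limma adjusted p = 1.3e-09). Values of MT1X were 109.8, 100.4 and 112 TPM in 5-FU res and 314, 331 and 303 TPM in OX res (log2 fold change -1.55 ± 0.052 SE, limma adjusted p = 4.3e-08). For all 3 genes the lowest OX res library stood far above the highest 5-FU res library. Untreated cells held 2427, 694 and 224 TPM, so these 3 genes were lower in 5-FU res than in either of the other SW480 states. Neighbouring genes outside the family had medians of -0.094 and 0.014, and the family members are similar enough to share reads. Metallothionein genes are switched on by MTF1 through short metal response elements, and the 250 bases before the RefSeq start of 3 members that moved together are shown for that reason (GRCh38.p14, 5′ to 3′ on the gene's strand). They are chr16:56608334-56608583 (plus strand), chr16:56682220-56682469 (plus strand) and chr1:211579162-211579411 (minus strand). Capitals mark matches on either strand to TGCACNC or TGCGCNC, the core letters of the element, which overlap nowhere in these sequences.
MT2A: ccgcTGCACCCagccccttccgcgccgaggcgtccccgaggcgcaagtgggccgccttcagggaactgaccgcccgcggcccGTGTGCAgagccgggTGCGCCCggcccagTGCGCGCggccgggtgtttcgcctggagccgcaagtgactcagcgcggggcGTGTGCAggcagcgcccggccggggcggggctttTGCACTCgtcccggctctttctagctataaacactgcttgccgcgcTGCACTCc
MT1X: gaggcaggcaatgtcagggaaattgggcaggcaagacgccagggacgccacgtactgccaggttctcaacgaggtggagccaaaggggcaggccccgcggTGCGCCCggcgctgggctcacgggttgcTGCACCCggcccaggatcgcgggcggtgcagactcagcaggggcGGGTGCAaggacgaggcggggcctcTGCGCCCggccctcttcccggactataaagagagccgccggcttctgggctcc
SLC30A1: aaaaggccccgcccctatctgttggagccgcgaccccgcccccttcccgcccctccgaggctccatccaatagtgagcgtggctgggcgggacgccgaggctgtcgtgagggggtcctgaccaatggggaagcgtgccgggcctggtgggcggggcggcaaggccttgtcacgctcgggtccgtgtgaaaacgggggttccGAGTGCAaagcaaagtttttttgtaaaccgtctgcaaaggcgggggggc
These windows hold 7, 4 and 1 matches. Of 35116 RefSeq promoters of the same length, 24.8% hold at least 1 match and 0.37% at least 4. A match describes letters and is not a measured site.

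Genes of thiol and glutathione metabolism were lower in 5-FU res more often than higher. The NRF2, glutathione and thiol list had 12 members higher and 33 lower, with 51 of 56 tested (median log2 fold change -0.37). SLC7A11, the cystine importer that feeds glutathione synthesis, had 1.61, 1.93 and 1.57 TPM in 5-FU res and 12.3, 11.3 and 13.3 TPM in OX res (log2 fold change -2.298 ± 0.10 SE, limma adjusted p = 1.9e-07). GSTM4, a glutathione transferase, and ME1, malic enzyme, were lower at 27.1 against 122 TPM and 12.8 against 39.3 TPM. PRDX5, PRDX4 and the aldo-keto reductases AKR1B1 and AKR1C3 went the other way (505 against 195 TPM, 207 against 100.1 TPM, 6.96 against 1.81 TPM and 8.15 against 2.201 TPM), and AKR1C3 has close copies. ALDH3A1, an aldehyde dehydrogenase, was 12.1 ± 0.156 against 65.8 ± 4.58 TPM. ABC transporters had 12 members higher and 6 lower, with 28 of 33 tested. The drug pump ABCB1 (P-glycoprotein) had 9.49, 11.2 and 9.85 TPM in 5-FU res and 23.4, 23.7 and 24.4 TPM in OX res (log2 fold change -1.15 ± 0.075 SE, limma adjusted p = 1.5e-06, neighbours -0.47). ABCC3 and ABCB6 were also lower (25.8 against 56.2 TPM and 11.6 against 27.7 TPM), and the sterol exporter ABCG1 was higher (9.27 against 0.415 TPM). CYP24A1, which inactivates vitamin D, had 74.2, 77.8 and 73.2 TPM in 5-FU res and 3.45, 2.11 and 4.08 TPM in OX res (log2 fold change 4.204 ± 0.15 SE, limma adjusted p = 7.2e-08).

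Among 13 CRC stem cell markers that the study names, 10 were tested, 7 higher and 3 lower, and without any 1 of the 5-FU res libraries 4 were higher. With a mean of 5 TPM required 4 were higher as well. NANOG reached 1 TPM in 5-FU res alone and LGR5 in OX res alone, so each was tested only through the group where it is higher. CD24, a surface glycoprotein, had 18.8, 22.1 and 20.5 TPM in 5-FU res and 6.13, 5.89 and 6.12 TPM in OX res (log2 fold change 1.61 ± 0.08 SE, limma adjusted p = 3.5e-07). SOX2, a pluripotency factor, had 14.4, 14.1 and 13.5 TPM in 5-FU res and 4.06, 4.46 and 3.78 TPM in OX res (log2 fold change 1.56 ± 0.085 SE, limma adjusted p = 5.8e-07), against neighbours at -0.66. Both were several times higher in every 5-FU res library. NANOG was 1.59 against 0.115 TPM and has expressed pseudogenes. CD44, ALCAM, ITGB1 and POU5F1 were higher by 0.45, 0.74, 0.24 and 0.44 on the log2 scale, and POU5F1 did not pass under several other settings. EPCAM went the other way with 106, 109 and 100.3 TPM in 5-FU res and 241, 204 and 217 TPM in OX res (log2 fold change -1.06 ± 0.062 SE, limma adjusted p = 8.6e-07). LGR5, the WNT-dependent marker of crypt base cells, had 0.113, 0.112 and 0.142 TPM in 5-FU res and 1.53, 1.61 and 1.46 TPM in OX res (log2 fold change -1.17 ± 0.13 SE, limma adjusted p = 4.3e-05), low in all libraries and nearly absent from 5-FU res. ITGAV was lower too, at 25.4 against 48.8 TPM. GDF15, a stress-induced cytokine of the TGF-β family and the gene the study follows, had 72.1, 76.8 and 72.7 TPM in 5-FU res and 37.3, 34.2 and 36.5 TPM in OX res (log2 fold change 1.02 ± 0.052 SE, limma adjusted p = 4.1e-07), and untreated SW480 a mean of 7.04 TPM. Both resistant groups thus lay above WT in level, 5-FU res the more so.

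Intestinal and epithelial programmes were mixed. The intestinal stem cell and WNT target list had 9 members higher and 19 lower, with 30 of 35 tested (median -0.33), with CCND1, cyclin D1, at 548 against 1171 TPM, TNFRSF19 at 5.67 against 22.1 TPM and EPHB3 the other way at 11.8 against 4.69 TPM. Only 13 of 50 intestinal differentiation genes passed the level filter, 8 of them higher and 3 lower. CDX2, the colon identity factor, had 5.78, 5.53 and 5.68 TPM in 5-FU res and 30.3, 29.8 and 29.5 TPM in OX res (log2 fold change -2.21 ± 0.064 SE, limma adjusted p = 1.6e-08, neighbours -0.65). MUC13, TFF2, VIL1 and HNF4A were higher at 31.2 against 3.92 TPM, 19.7 against 3.18 TPM, 10.9 against 2.67 TPM and 19.4 against 5.45 TPM. The epithelial junction list had 10 members higher and 21 lower, with 42 of 47 tested, among them the splicing regulator ESRP1 (6.74 against 20.5 TPM) and MAL2 (10.2 against 35.7 TPM) lower and the ETS factors EHF (87.9 ± 6.01 against 9.03 ± 0.691 TPM) and ELF3 (20.99 ± 1.03 against 2.19 ± 0.0478 TPM) higher. Keratins had 9 members higher and 6 lower, with 16 of 20 tested. Of the 9 higher members, 7 lay in a higher stretch. The whole list summed to less in 5-FU res, 10969 to 11355 TPM, than in OX res, 12706 to 13592 TPM. KRT7, a keratin of ductal epithelia, had 114, 109 and 118 TPM in 5-FU res and 4.17, 5.103 and 6.59 TPM in OX res (log2 fold change 4.21 ± 0.12 SE, limma adjusted p = 1.6e-08). Its cluster mates KRT80 (139.97 against 55.3 TPM), KRT81 (559 against 73.01 TPM) and KRT86 (34.1 against 8.17 TPM) were higher as well, the last 2 near-copies of each other, while KRT5 (1094 against 1868 TPM) and KRT19 (444 against 725 TPM) were lower.

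Mesenchymal genes had 30 members higher and 9 lower, with 42 of 63 tested, which puts 71.4% of tested members higher, with a median of 0.73. CDH11 led them. ENG, a TGF-β co-receptor, had 23.6, 21.7 and 22.98 TPM in 5-FU res and 1.601, 1.91 and 2.22 TPM in OX res (log2 fold change 3.03 ± 0.099 SE, limma adjusted p = 3.4e-08), and the matrix protein FBLN1 (29.5 ± 1.87 against 3.57 ± 0.752 TPM) and the tropomyosin TPM2 (134 ± 5.18 against 23.7 ± 3.86 TPM) followed. The members that were lower include TNC (3.65 against 15.7 TPM) and fibronectin FN1 (15.5 against 35.9 TPM). Of the 9 fibroblast markers, COL1A1 (2.84 against 1.14 TPM) and PDGFRB (1.93 against 0.105 TPM) were tested and higher, 1 of them without any 1 of the 5-FU res libraries. PDGFRB reached 1 TPM in 5-FU res alone and was tested only through that group. The whole list summed to 5.14 to 5.59 TPM in 5-FU res and 1.12 to 1.92 TPM in OX res, with COL3A1, DCN and THY1 at 0 in OX res and at no more than 0.223 TPM in 5-FU res. Annexin ANXA1 (388 ± 11.2 against 44.8 ± 2.11 TPM) and S100A3 (414 ± 22.3 against 97.8 ± 4.24 TPM) led the calcium-binding proteins.

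TGF-β signalling had 17 members higher and 12 lower, with 40 of 46 tested (median 0.078), shares near those of all genes. FSTL3 (27.3 against 7.67 TPM), the feedback inhibitor PMEPA1 (68.7 against 30.1 TPM) and JUNB (139 against 58.9 TPM) were higher, and the classic target gene TGFBI (63.2 against 217 TPM) lower. In the BMP list, BMP4 was higher while BMP6 was lower (1.98 against 6.52 TPM), and their ID target genes parted. ID1 had 25.5, 26.8 and 27.5 TPM in 5-FU res and 7.36, 9.12 and 6.36 TPM in OX res (log2 fold change 1.69 ± 0.11 SE, limma adjusted p = 1.5e-06). ID2 had 51.6, 51.1 and 47.4 TPM in 5-FU res and 170.2, 176 and 178 TPM in OX res (log2 fold change -1.78 ± 0.046 SE, limma adjusted p = 8.8e-09). The SOX, KLF, FOX and HOX factors had 27 members higher and 13 lower, with 60 of 69 tested, with the homeobox gene HOXB2 higher (277 ± 10.3 against 48.9 ± 2.63 TPM) and HOXD11 and HOXD10 lower (2.47 against 8.31 TPM and 2.25 against 4.92 TPM). EGFR had 12.4, 12.3 and 10.3 TPM in 5-FU res and 31.6, 33.8 and 35.3 TPM in OX res (log2 fold change -1.45 ± 0.084 SE, limma adjusted p = 7.7e-07). Its relative ERBB3 was lower too (9.84 against 19.5 TPM), while the ligand HBEGF (18.4 against 6.66 TPM) and the MAP kinase phosphatase DUSP4 (62.96 against 21.1 TPM) were higher. Growth factors and their receptors had 22 members higher and 8 lower, with 36 of 50 tested. IGF2 had 53.4, 58.03 and 55.2 TPM in 5-FU res and 9.11, 9.32 and 8.09 TPM in OX res (log2 fold change 2.52 ± 0.069 SE, limma adjusted p = 1.3e-08) in a region where neighbours had a median of 0.79, and FGF20 was lower (3.54 against 17.6 TPM).

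Inflammatory and interferon genes were more often higher than lower in 5-FU res. The NF-κB and chemokine list had 22 members higher and 8 lower, with 40 of 53 tested (median 0.33). The neutrophil chemokine CXCL8 had 22.5, 21.8 and 19.4 TPM in 5-FU res and 3.15, 2.67 and 2.26 TPM in OX res, and its relative CXCL1 was 15.4 ± 2.74 against 2.47 ± 0.603 TPM. LCN2, an iron-binding lipocalin, was 65.99 ± 6.62 against 8.44 ± 3.13 TPM, and the prostaglandin enzyme PTGS2 was lower at 0.121 against 1.12 TPM. The interferon list had 35 members higher and 6 lower, with 49 of 57 tested (median 0.48). BST2, tetherin, had 19.9, 26.6 and 20.8 TPM in 5-FU res and 7.04, 7.202 and 6.48 TPM in OX res (log2 fold change 1.56 ± 0.11 SE, limma adjusted p = 2.3e-06), IFIT3 14.05 against 5.41 TPM and TMEM173, which encodes STING, 106 against 39.8 TPM. Of the 6 lower members, PARP9, DTX3L and PARP14 are neighbours in the chromosome 3 stretch (log2 fold changes -1.01, -0.90 and -0.40, neighbour medians -1.01, -1.02 and -0.96), and with the position trend removed the list stood at 36 higher and 1 lower. Without 5-FU res replicate 2 the list had 23 higher members. Antigen presentation had 14 members higher and 0 lower, with 23 of 30 tested, all by less than 1 on the log2 scale. The class I genes HLA-E and HLA-C were 164 against 86.9 TPM and 779 against 452 TPM, with the caution that HLA genes share reads. For that list the count of lower members went to 1 with median-of-ratios scaling and to 3 with the position trend removed.

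Stress and death genes were divided by pathway. The p53 target list had 23 members higher and 4 lower, with 36 of 39 tested, led by BTG2 (13.8 against 4.16 TPM), TP53I11 (22.1 against 7.84 TPM) and TP73 (11.1 against 4.25 TPM, neighbours 1.11), with the TRAIL receptors TNFRSF10D and TNFRSF10A lower (25.9 against 68.1 TPM and 17.6 against 34.5 TPM). The count of lower members went from 4 to 8 with median-of-ratios scaling. Apoptosis regulators had 26 members higher and 6 lower, with 40 of 49 tested, among them BIRC3 (9.27 against 3.04 TPM) higher and BIK (33.6 against 64.1 TPM) lower. The ATF4 list, genes of amino acid synthesis and the integrated stress response, was mostly lower, with 7 members higher and 27 lower, with 44 of 46 tested (median -0.35). CBS, of the transsulfuration pathway, had 4.33, 4.08 and 3.64 TPM in 5-FU res and 19.7, 21.6 and 21.6 TPM in OX res (log2 fold change -2.13 ± 0.085 SE, limma adjusted p = 1.1e-07). DDIT4, an inhibitor of mTORC1, had 6.68, 6.18 and 6.74 TPM in 5-FU res and 28.9, 30.5 and 32.6 TPM in OX res (log2 fold change -2.07 ± 0.073 SE, limma adjusted p = 5.6e-08). The hypoxia and glycolysis list had 10 members higher and 27 lower, with 43 of 48 tested (median -0.50), with EPAS1, DDIT4, ANKRD37 (3.98 against 19.5 TPM) and PKM lowest. SLC2A14 was higher (10.9 against 1.34 TPM) but nearly matches SLC2A3 in sequence. Lysosome and autophagy genes were mostly higher, with 33 members higher and 11 lower, with 50 of 52 tested. GABARAPL1, an autophagosome protein, had 558, 563 and 550.5 TPM in 5-FU res and 104, 102 and 111 TPM in OX res (log2 fold change 2.39 ± 0.041 SE, limma adjusted p = 9.7e-10), and the protease CTSS was 15.8 ± 0.412 against 2.65 ± 0.287 TPM.

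Genes of growth moved in opposite ways. DNA replication and E2F targets had 39 members higher and 6 lower, with 65 of 65 tested, with small changes (median 0.20). CCNE1, cyclin E1, had 25.98, 23.5 and 25.8 TPM in 5-FU res and 7.74, 7.44 and 9.42 TPM in OX res (log2 fold change 1.51 ± 0.093 SE, limma adjusted p = 1.1e-06). MCM2 and RFC3, among the 6 lower members, lie where neighbours had medians of -0.75 and -0.60. Mitotic genes were even, with 21 members higher and 21 lower, with 57 of 57 tested (median -0.012). The MYC network and ribosome biogenesis list had 10 members higher and 40 lower, with 60 of 61 tested, with GAR1, an H/ACA snoRNP protein, at 47.97 against 122 TPM and LYAR at 28.8 against 84.2 TPM. Cytosolic ribosomal proteins had 6 members higher and 51 lower, with 82 of 88 tested (median -0.18), counts that became 15 and 29 with quantile normalization. They summed to 14.5 to 14.6% of TPM in 5-FU res and 16.6 to 17.1% in OX res. The proteasome had 9 members higher and 22 lower, with 34 of 34 tested. Its count of higher members became 3 with the position trend removed. Histone cluster genes had 30 members higher and 3 lower, with 50 of 89 tested (median 0.45), with HIST1H2AE at 30.6 against 7.797 TPM, although a poly(A) library captures most histone transcripts poorly and their copies are alike. Respiratory complex I was near the background, with 17 members higher and 12 lower, with 38 of 38 tested. Its extremes NDUFB4 (-1.17, neighbours -1.11) and NDUFB11 (1.08, neighbours 0.77) lie in the chromosome 3 and X stretches.

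**Figure D4:**
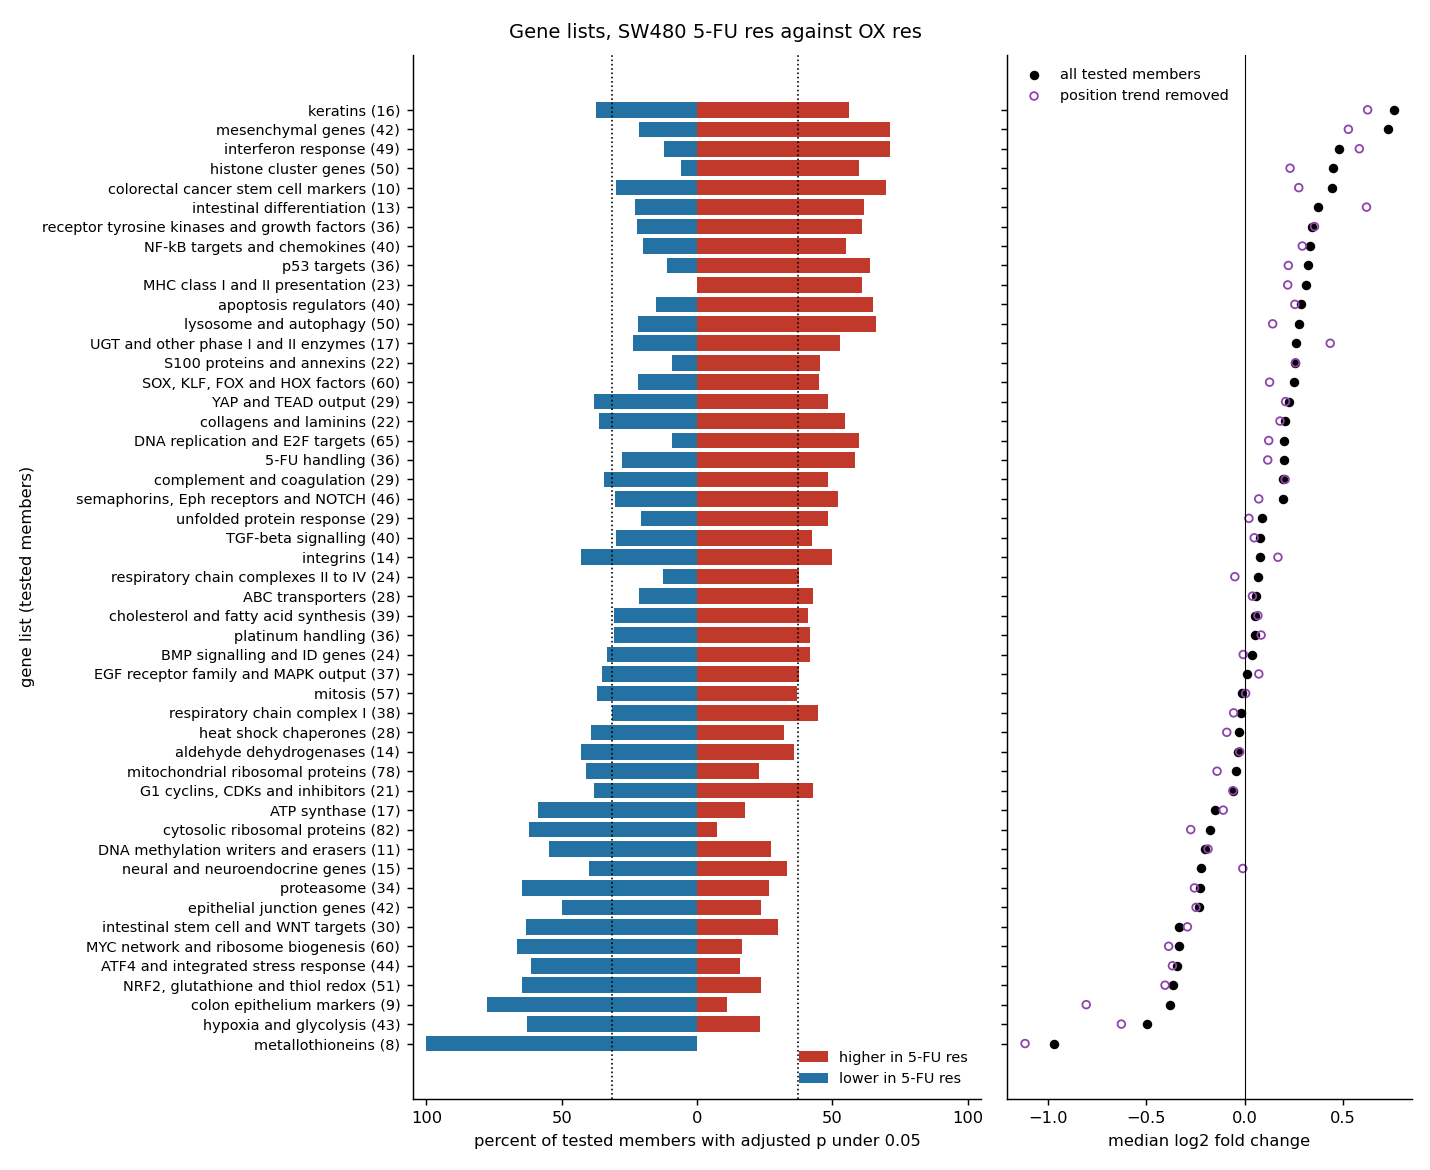
Left, percent of each list's tested members that were higher (red) or lower (blue) in 5-FU res at an adjusted p under 0.05, with dotted lines at the shares over all genes tested; right, the median log2 fold change of the list as fitted (filled) and with the position trend removed (open). Of the lists drawn, those with at least 8 tested members, metallothioneins lie lowest at -0.97, and keratins and mesenchymal genes highest at 0.76 and 0.73.

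The same contrast was then set against HCT116 and DLD-1, whose libraries it does not share. The SW480 difference departed from the HCT116 difference in 3766 genes in the higher direction (24.0%) and 1310 in the lower (8.36%) of 15669 tested over the 18 resistant libraries (limma interaction, adjusted p under 0.05 and log2 difference beyond 1). From DLD-1 it departed in 2227 (14.2%) and 1013 (6.46%). The balance depends on scaling. The median interaction was 0.34 for HCT116 and 0.17 for DLD-1, and with median-of-ratios scaling, where it was 0.04 and 0.014, the counts became 2520 and 2094 for HCT116 and 1677 and 1354 for DLD-1. In the fit of the 18 resistant libraries 919 genes (5.87%) were called higher in SW480 and 654 (4.17%) lower. Of the higher genes 39 were also called higher in HCT116, 4.24% of the SW480 list beside 4.61% of all genes called higher in HCT116, and 5.402% of the HCT116 list. Of the lower genes 99 were shared, 15.1% of the SW480 list beside 15.5% of all genes, and 4.08% of the HCT116 list. With DLD-1 23 higher and 38 lower genes were shared, 2.503% and 5.81% of the SW480 lists beside 2.23% and 5.12% of all genes, and 6.59% and 4.73% of the DLD-1 lists. The shares of the HCT116 and DLD-1 lists are to be read against the SW480 shares given first. Opposite calls also occurred. Of the 919 higher genes, 218 were called lower in HCT116 and 109 in DLD-1, where 15.5% and 5.12% of all genes were called lower. Of the 654 lower genes, 57 were called higher in HCT116 and 35 in DLD-1, beside 4.61% and 2.23% of all genes. For the higher genes, opposite calls outnumbered shared ones in both lines. Over all genes, however, lower calls also outnumbered higher ones, by 15.5% to 4.61% in HCT116 and by 5.12% to 2.23% in DLD-1. These overlaps are given for TPM only, and whether they depart from those shares was not tested.

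Whole programmes differed between the lines. All 57 tested interferon genes had a higher SW480 difference than HCT116 difference, also with median-of-ratios scaling (57), against 50.6% of all genes. In HCT116 itself 57 were lower in 5-FU res and 0 higher, beside 52.4% and 19.0% of all genes. The log2 fold change of BST2 was 1.56 in SW480 and -7.99 in HCT116 (interaction 9.55, limma adjusted p = 3.7e-15). Antigen presentation differed the same way in 28 of 28 genes (26 with median-of-ratios scaling). Replication genes divided the lines, since 53 of 65 had a lower SW480 difference than HCT116, where 61 were higher in 5-FU res, and 64 a higher one than DLD-1, where all 65 were lower. Over all genes the interaction was lower against HCT116 in 22.8% and higher against DLD-1 in 40.9%, and 38.4% of genes were lower in DLD-1. With median-of-ratios scaling the counts of replication genes were 59 and 63. Of 9 metallothionein list members, 4 were higher and 1 lower in HCT116, and the SW480 difference was lower than that of HCT116 in 7 and higher in 1. Values in SW480 and HCT116 were opposite for MT1E at -1.703 and 1.58 (interaction adjusted p = 6.6e-15) and MT2A at -1.51 and 1.17 (1.7e-13), while DLD-1 had -1.26 and -0.36. The ATF4 list was lower in SW480 and HCT116 but had 40 higher members and 1 lower in DLD-1, and 41 of 46 passed the test of that difference, under either scaling. In all genes 16.2% were higher in DLD-1 and 22.8% had such an interaction. SLC7A11 stood at -2.298, -2.84 and 1.47 in SW480, HCT116 and DLD-1. EPAS1 was similarly lower in SW480 and DLD-1 (-3.098 and -2.94; interaction -0.16, adjusted p = 0.26) and higher in HCT116 (0.59).

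Few genes moved alike in all 3 lines. By the call rule 9 of 15669 genes tested were lower in 5-FU res than in OX res in each, and 1 was higher. The higher gene was the small Cajal body RNA SCARNA16 (1.105, 2.44 and 1.08 in SW480, HCT116 and DLD-1). In the same order of lines, 4.17%, 15.5% and 5.12% of all genes were called lower and 5.87%, 4.61% and 2.23% higher. Whether the counts of 9 and 1 exceed what unrelated calls at these shares would give was not tested. The shared genes were named after their values were seen. ALDH3A1 had log2 fold changes of -2.35, -3.94 and -1.25 in SW480, HCT116 and DLD-1. SYTL2, a vesicle docking protein, had -1.73, -1.99 and -1.75, the semaphorin SEMA3A -1.37, -2.105 and -1.73, MIA -2.48, -3.19 and -1.27 and the ephrin EFNA5 -1.31, -1.22 and -1.11. KRT13, BTBD3, ZBTB7C and LOC344887 complete the group. The stretches of neighbouring genes had no counterpart, since 0 of the 23 SW480 stretches had a median beyond 0.5 from that of all genes in the same direction in HCT116 or DLD-1. By the same rule HCT116 had 13 stretches of its own and DLD-1 0.

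**Figure D5:**
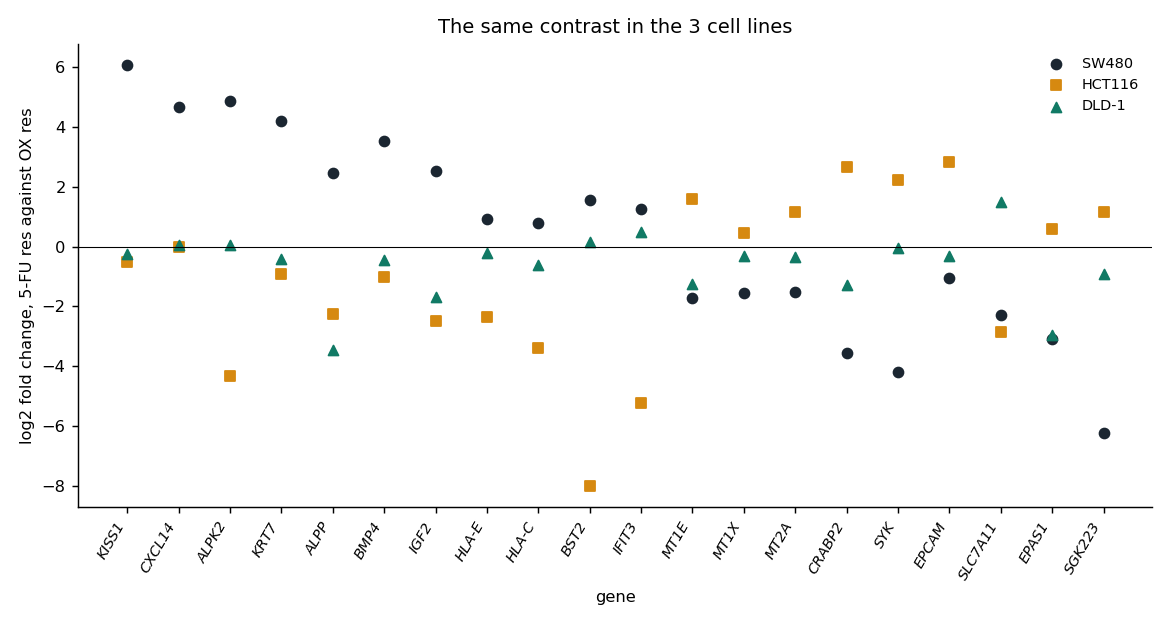
Log2 fold change, 5-FU res against OX res, of 20 genes described in the text in SW480 (circles), HCT116 (squares) and DLD-1 (triangles). KISS1, KRT7 and BMP4 are high in SW480 alone, and MT1E, MT2A, CRABP2, SYK and EPCAM are below 0 in SW480 and above 0 in HCT116.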

How the data were processed

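RNA of 27 libraries of the colorectal cancer lines SW480, HCT116 and DLD-1 was read as stranded poly(A) libraries on a DNBSEQ-G400, and 6 SW480 libraries enter the main comparison. The deposited values are FPKM per gene symbol, which the authors made with TopHat2, Bowtie2 and Cufflinks on hg19 (the submitters' processing notes name TopHat2 2.1.1, Bowtie2 2.2.8, SAMtools 0.1.18 and Cuffdiff 2.2.1). How each tool was set is not given in the sources used here. Counts and depth were not given, so the precision rests on the spread over 3 libraries.

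Here each FPKM was divided by its library sum to give TPM, and limma 3.58.1 (R 4.3.3, with trend) was fitted to log2(TPM + 1) over genes at 1 TPM or more in at least 3 of 6 libraries, with Benjamini-Hochberg adjustment. Interactions with the other lines came from the 18 resistant libraries. DLD-1 libraries carry names of another series, so batch and line cannot be told apart, while each contrast lies within a line. With 3 against 3 libraries an exact rank test, the kind the study uses, cannot give a p below 0.1. Alternatives were median-of-ratios scaling, quantile normalization, deposited FPKM, other pseudocounts and filters, other fits, a replicate block and each library left out, and, added after seeing the data, a fit with the position trend removed and windows and thresholds for stretches. Gene names were given positions by symbol from GENCODE v44 lifted to GRCh37 (hg19). Named genes were, by rule, first the 12 largest changes per direction. These were taken among called genes whose groups did not overlap and whose higher group had a mean of 5 TPM or more. The rule also named members of the drug and stem cell lists and the 4 extremes per direction of each list. It further took the 5 largest TPM differences per direction, the 6 largest differences from both other lines and the 3 longest runs. The other genes given with values were chosen after those were seen. The members and the lists were chosen with earlier results of these data known. The fits were tested on simulated data. Some genes are not reported here.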

Additional observations from a re-analysis of the deposited data

Results flagged for a closer look

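The SW480 contrast differed from the same contrast in both other lines most of all, in either direction, for 12 genes (limma interaction, 18 resistant libraries). Each value here is the smaller of the 2 differences in log2 fold change, and each passed with median-of-ratios scaling as well. On the higher side stood KISS1 (6.32), ALPK2 (4.82), ALPP, a placental alkaline phosphatase with close copies (4.71), KRT7 (4.63) and CXCL14 (4.61). On the lower side stood REG3A (-5.33), SGK223 (-5.32), SYK (-4.16) and CPLX2 (-4.15). The small nucleolar RNAs SNORD94 (5.08), SNORA21 (-4.86) and SNORA80B (-4.62) met the same rule with far wider errors, SE 1.53 to 2.103 and adjusted p 0.009 to 0.041. In all, 5076 genes differed from HCT116 and 3240 from DLD-1.

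For SYK the log2 fold changes were -4.197 in SW480, 2.22 in HCT116 and -0.042 in DLD-1. Those of CRABP2 were -3.56, 2.66 and -1.29.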

How the results depend on the processing

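The calls in SW480 stayed within 1.5 times of the main count under every setting run, with 1095 to 2164 genes called. Leaving out each library in turn gave 1417 to 1518 calls, 758 to 938 higher and 557 to 688 lower, 1103 to 1186 passing members of the gene lists and 185 to 187 of the named genes. The balance of the line comparison did depend on scaling. Against HCT116 the higher differences numbered 2126 on deposited FPKM and 2302 with quantile normalization in place of 3766, and the lower ones 2094 with median-of-ratios scaling and 2272 with quantile normalization in place of 1310. Against DLD-1 the higher ones numbered 1392 on deposited FPKM in place of 2227. With each library left out they were 4888 to 5080 for HCT116 (3518 to 3817 higher, 1247 to 1411 lower) and 3188 to 3290 for DLD-1 (2156 to 2306 higher, 952 to 1042 lower). With a mean of 5 TPM required, which tests fewer genes, the higher members numbered 21 in the interferon list, 14 in the NF-κB list, 14 among growth factors and receptors, 7 among ABC transporters and 5 among keratins. With the position trend removed, 10 ABC transporters were lower. A window of 41 genes gave 14 stretches and a threshold of 0.4 gave 46 in place of 23. Of 206 named genes tested, 184 kept their direction and side of the threshold throughout. With the position trend removed, DTX3L stood at 0.099, PARP14 at 0.60, ERCC5 at -0.12 and MEGF6 at -0.025, opposite to their fitted signs, by construction of that fit. The fit with the replicate block called 911 genes higher and 650 lower. Libraries sharing a replicate number deviated together with correlations of only 0.0095, 0.1036 and 0.0325, so the numbers were not taken as pairs. Depth was not given, so low values carry an unknown counting error.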

Other observations

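Further gene lists are given with members taken from their extremes between SW480 5-FU res and OX res. Over all genes 37.3% were higher and 31.3% lower, so such members alone do not set a list apart. Semaphorins, Eph receptors and NOTCH genes had 24 members higher and 14 lower, with 46 of 55 tested. SEMA3F, a secreted guidance protein, was 3.59 ± 0.0865 against 0.397 ± 0.1096 TPM (SD, n = 3) and SEMA3A 1.82 ± 0.108 against 6.32 ± 0.825 TPM. Complement and coagulation genes had 14 members higher and 10 lower, with 29 of 46 tested (without OX res replicate 1 or 3, 6 lower), with the C1 inhibitor SERPING1 (9.87 against 2.54 TPM) and the thrombin receptor F2R (8.195 against 2.08 TPM) higher and coagulation factor F12 lower (7.51 against 29.4 TPM). In the YAP and TEAD list, with 14 members higher and 11 lower, with 29 of 30 tested, the ectonucleotidase NT5E was higher (54.6 ± 0.721 against 15.3 ± 0.844 TPM, neighbours -0.33) and the co-activator WWTR1 (TAZ) lower (15.6 against 34.03 TPM). Integrins had 7 members higher and 6 lower, with 14 of 23 tested, with ITGB7 higher (2.03 against 0.471 TPM) and the collagen receptor subunit ITGA2 lower (10.1 against 21.996 TPM). The laminin chain LAMC1 (20.7 against 47.5 TPM) was lower and lies in the 1q stretch (neighbours -0.91), while HSPG2, perlecan, was higher (47.6 against 22.8 TPM, neighbours 0.041).

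Lipid and cell cycle regulators parted within their groups. Cholesterol and fatty acid genes had 16 members higher and 12 lower, with 39 of 39 tested, with the transcription factor SREBF1 (28.6 ± 1.898 against 11.3 ± 0.981 TPM) and the desaturase FADS2 (55.02 against 21.999 TPM) higher. Among G1 regulators, with 9 members higher and 8 lower, with 21 of 21 tested, CCND2 (9.56 against 21.7 TPM) and CDK6 (9.23 against 22.9 TPM) were lower and the inhibitor CDKN2D higher (28.9 against 10.8 TPM). Heat shock genes had 9 members higher and 11 lower, with 28 of 28 tested, with the small chaperone CRYAB (7.82 against 0.99998 TPM) and HSPA2 (40.5 against 11.3 TPM) higher and HSPH1 lower (122 against 190.4 TPM, neighbours -0.53). CYP26A1, which degrades retinoic acid, was higher (5.48 ± 1.29 against 0.597 ± 0.214 TPM), opposite in direction to CRABP2. The DNA demethylases TET2 (2.32 against 5.18 TPM) and TET3 (6.34 against 11.1 TPM, neighbours -0.59) were lower.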
